A study of Mus musculus with 64 samples.

Results

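Resting bone marrow-derived macrophages (BMMs) of Ahr+/+ mice were compared between 20 h and 3 h of culture, to see which transcripts changed with culture time alone. The 8 libraries were picked by their labels, which name the Ahr+/+ genotype, no ligand of the aryl hydrocarbon receptor (AhR), no activation and the time point. They were 4 at 3 h and 4 at 20 h, of 64 in the whole series, and their RNA was sequenced as poly(A)-selected, strand-specific libraries. Bone marrow cells of female C57BL/6JRj mice aged 8 to 12 weeks were differentiated for 6 days with 30% supernatant of the L929 fibroblast line, a source of M-CSF, then scraped off, replated and kept for 6 h with 0.01% DMSO, the solvent of the ligands. From then on they stayed without hk S.E. (heat-killed Salmonella enterica serovar Enteritidis, which activates pattern recognition receptors in the other cultures) for 3 h or 20 h. All 8 cultures therefore carried DMSO, and the description of the replating medium names serum but no L929 supernatant. For comparison, the same change was taken in resting BMMs labelled Ahr-/- (4 libraries at each time, from mice that lack Ahr and had been crossed back to C57BL/6JRj, also kept with DMSO and no ligand) and in Ahr+/+ BMMs activated with hk S.E. after the same DMSO step (4 libraries at each time). The methods name 4 mice for each genotype, but neither they nor the labels tie a replicate number to a mouse. The edgeR p-values therefore measure a spread between libraries of the same group, which may be partly technical. That spread was pooled over all 64 libraries of the series, those with ligand included.

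BMMs are primary macrophages that need M-CSF, acting through the receptor Csf1r, to survive and to divide. Detaching and replating them is a disturbance of its own, while the factor NRF2 governs genes against oxidative stress and ATF4 genes that answer to a shortage of amino acids. Resting macrophages also keep a low, tonic type I interferon signal that sets the level of interferon-stimulated genes, and their circadian clock can be reset by fresh serum.

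The 3 h libraries held 15678717 to 30760778 reads on genes and the 20 h libraries 21347014 to 233047331, the highest being replicate 4. That library was 7.58 times as deep as the next of the 8, while the other 56 libraries of the series held 12152496 to 50644601 reads, so all levels below are counts for every 1000000 counts of a library (CPM), with library sizes scaled by the trimmed mean of M-values (TMM), and the counts of called genes at rest were also computed without it. On the first principal component of the 8 libraries, which held 35.7% of the variance, the 3 h libraries lay apart from the 20 h libraries. The 10 most abundant genes took 12.6 to 13.7% of the reads at 3 h and 12.2 to 12.4% at 20 h (exact permutation test, two-sided, p = 0.0286, the smallest that 4 against 4 can give). The label of the cells was borne by their markers: the 24 macrophage genes listed, among them Adgre1 and Csf1r, summed to 33600 to 36400 CPM at 3 h and 32500 to 36400 CPM at 20 h. Cd79a and Ms4a1 of B cells were at or near 0, and so were Mpo and Ctsg of granulocyte precursors and Siglech of plasmacytoid dendritic cells. These had too few reads to be tested, but other members of their lists did not. Of 13 granulocyte genes 7 were tested, and the list summed to 69.5 to 94.8 CPM at 3 h and 84.4 to 94.8 CPM at 20 h. The B cell list summed to 85.9 to 102 CPM at 3 h and 173 to 188 CPM at 20 h. The Ahr gene itself did not mark the genotype in these counts. It lay at 1.09 to 4.72 CPM in the 8 resting Ahr+/+ libraries and at 5.11 to 9.47 CPM in the 8 libraries labelled Ahr-/-. Reads from all exons of the gene are counted together, so this count does not check a deletion of part of it, and the Ahr-/- libraries are named by their label only.

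Between 3 h and 20 h, 27 of 38 genes of mitosis rose, and so did 5 of 18 clock genes and several genes of macrophage surface proteins, while 16 of 35 interferon-stimulated genes, 13 of 27 NRF2 targets, 11 of 28 genes of the amino acid and unfolded protein response and 6 of 24 sterol genes fell. Of 14537 genes tested with edgeR's quasi-likelihood test, 481 were higher at 20 h and 402 were lower at an adjusted p below 0.01. That is 3.31% and 2.77% of the genes tested. The changes were of modest size, with a median of 0.70 on the log2 scale over the 883 called genes, whichever their direction, and at least a 2-fold change in 136 of the genes that rose and 100 of those that fell. The median over all tested genes was 0.012. In 849 of the 883 genes the 4 libraries at 20 h all lay on the same side of the 4 at 3 h, while over all tested genes such a separation was found in 21.1%. Without replicate 4 at 20 h, the very deep library, 557 genes were called, 295 higher and 262 lower. Without replicate 1 at 3 h, 310 were called higher. None of the called genes that were tested had the other sign under any alternative setting, with the exception of 1 gene when replicate 2 at 3 h was left out. As these are bulk libraries, fewer cells with a transcript and less of it in each cell cannot be told apart.

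**Figure D1:**
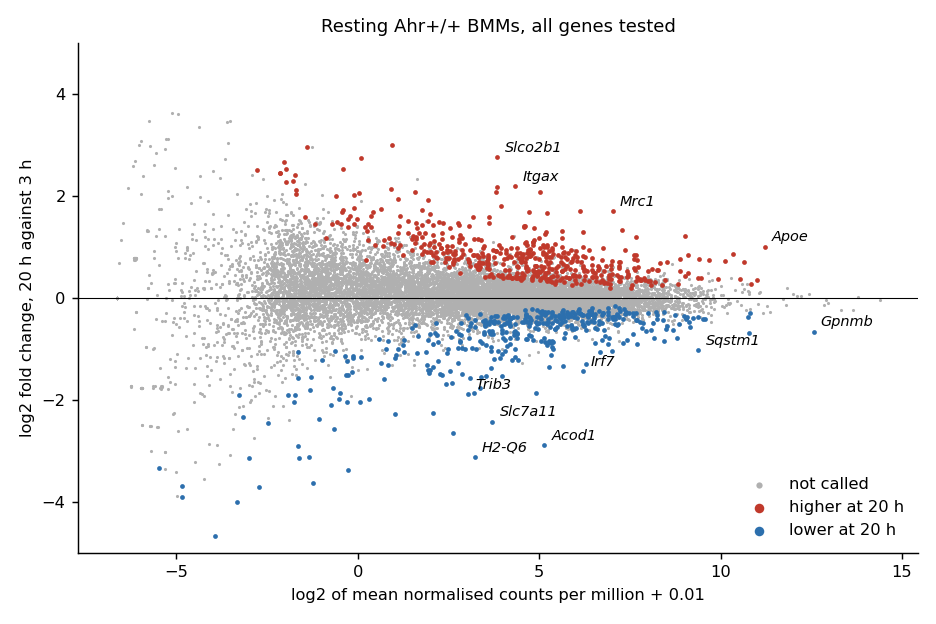
Log2 fold change from 3 h to 20 h (vertical axis) against the log2 of the mean level in CPM (horizontal axis) for the 14537 tested genes of resting Ahr+/+ BMMs. Each point is 1 gene, red where it was called higher (481), blue where called lower (402) and grey where not called, and the called genes lie on both sides of 0.

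Among protein-coding genes with a mean log2 CPM of at least 1, the largest rise was that of Slco2b1, which encodes a transporter of organic anions, on chromosome 7 (99657804 to 99711340 on the minus strand, GRCm38). In replicates 1 to 4, the order kept throughout, its level was 3.21, 5.09, 3.30 and 3.04 CPM at 3 h and 25.6, 31, 19.5 and 24.3 CPM at 20 h. The groups were far apart, at a log2 fold change of 2.76 (SE 0.26, edgeR adjusted p = 5.01e-10). The next was Itgax, the integrin CD11c, on chromosome 7 (128129547 to 128150657, plus strand), at 5.6, 7.28, 8.38 and 7.83 CPM and then 25.7, 34.2, 40.6 and 32.5 CPM, a log2 fold change of 2.19 (SE 0.31, edgeR adjusted p = 9.68e-07). Further genes among the 15 with the largest rises were Adgre4, an adhesion receptor of macrophages (2.17), Sult1a1, a sulfotransferase (2.08), Pik3ip1, an inhibitor of PI3 kinase (1.72), Trf, transferrin (1.71), Mrc1, the mannose receptor CD206 (1.70), Ms4a4a (1.68) and Gpr34 (1.59), each given as log2 fold change. The call of Gpr34 was lost without replicate 1, 3 or 4 at 3 h or replicate 1 or 2 at 20 h (edgeR adjusted p up to 0.0518). Trf lay at 27.8, 37, 29.4 and 36 CPM at 3 h and at 93.1, 132, 87.8 and 113 CPM at 20 h, with no overlap.

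Among the same kind of genes, the deepest falls were those of H2-Q6 and Acod1. H2-Q6, a class Ib histocompatibility gene on chromosome 17 (35424850 to 35430055, plus strand), lay at 18.1, 11.7, 25.7 and 11.1 CPM at 3 h and at 1.67, 2.33, 2.2 and 1.62 CPM at 20 h, a log2 fold change of -3.12 (SE 0.27, edgeR adjusted p = 3.88e-12). Its neighbour H2-Q7 was also among the 15 largest falls, but reads of such near-identical copies may be split between them, so neither value is certain. Acod1, the enzyme that makes itaconate in activated macrophages, lies on chromosome 14 (103046977 to 103056573, plus strand). Its level was 48, 47.7, 78.4 and 75.3 CPM at 3 h and 6.80, 8.30, 8.73 and 9.55 CPM at 20 h, so every early library exceeded every late one several times over (log2 fold change -2.89, SE 0.21, edgeR adjusted p = 6.03e-15). Others of the 15 were Dmpk, a protein kinase (-2.66), Ly6c2, a monocyte surface antigen with close paralogs (-2.25), Id3, an inhibitor of helix-loop-helix factors (-1.87), Chil3, the chitinase-like protein Ym1 (-1.57), and Met, the receptor of hepatocyte growth factor (-1.51).

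**Figure D2:**
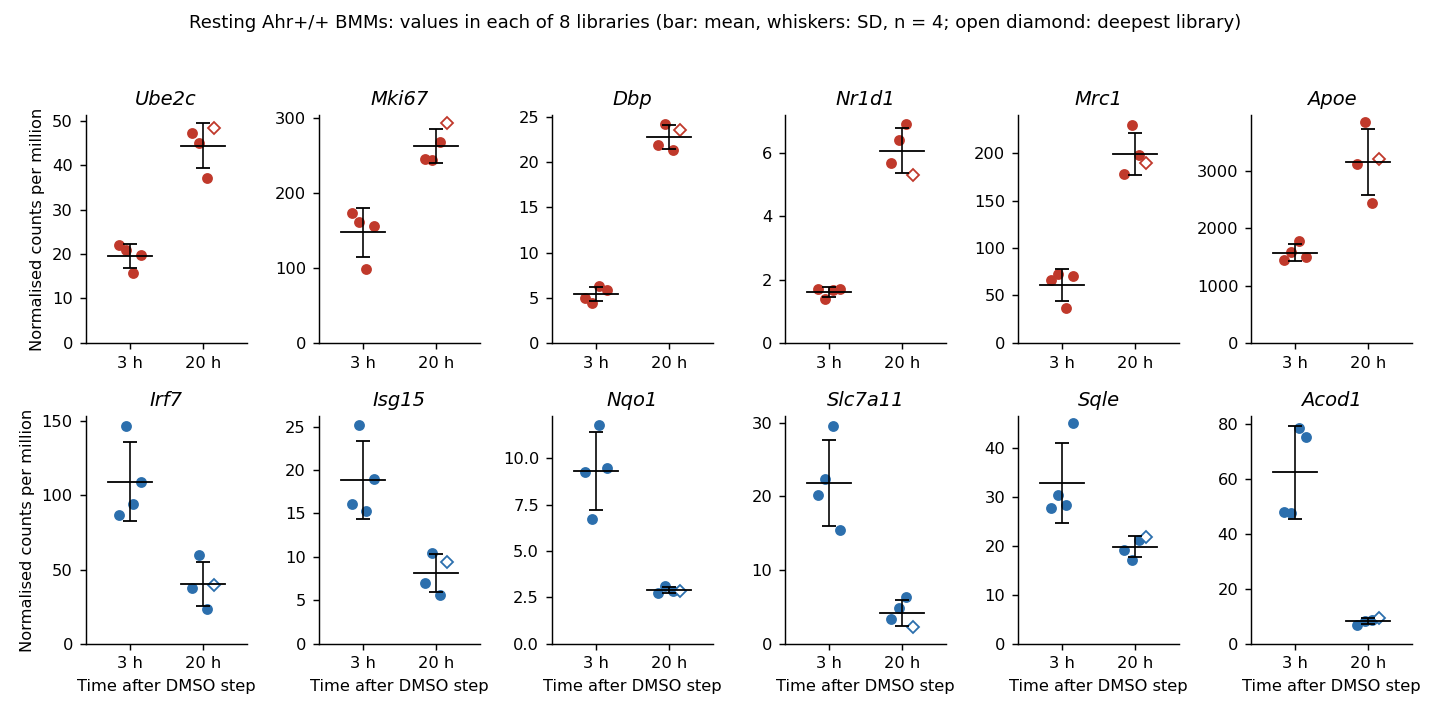
Levels (CPM, vertical axes starting at 0) of 12 genes in the 4 libraries at 3 h and the 4 at 20 h of resting Ahr+/+ BMMs. Points are libraries, bars the means, whiskers the SD and the open diamond the very deep library, and the libraries of 3 h and 20 h do not overlap for Ube2c, Mki67, Dbp, Nr1d1, Mrc1 and Apoe, which rose, or for Irf7, Isg15, Nqo1, Slc7a11, Sqle and Acod1, which fell.

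Genes of mitosis rose together. Of 38 such genes tested, 27 were called higher and none lower, against 3.31% higher and 2.77% lower among all genes, and all 38 had a positive log2 fold change, from 0.49 to 1.18 with a median of 0.80. In 37 of the 38 the libraries of the 2 times did not overlap, against 21.1% of all genes. Ube2c, the ubiquitin-conjugating enzyme of the anaphase-promoting complex, lay at 22.1, 20.9, 15.8 and 19.7 CPM at 3 h and at 47.3, 45.1, 37.1 and 48.3 CPM at 20 h (log2 fold change 1.18, SE 0.22, edgeR adjusted p = 0.00013). Cenpa, the histone variant of centromeres, lay at 31.2, 35.4, 21.5 and 32.8 CPM and then at 70.9, 77.4, 55.4 and 70.2 CPM (1.18, SE 0.18, edgeR adjusted p = 6.29e-06). In both genes replicate 3 was the lowest of its group at each time. Mki67, the antigen Ki-67 of cycling cells, lay at 174, 161, 99 and 156 CPM at 3 h and at 246, 244, 268 and 294 CPM at 20 h (0.84, SE 0.18, edgeR adjusted p = 0.000638). Cenpf, a kinetochore protein, rose from 27.3, 25.7, 12.8 and 24.3 CPM to 45.3, 45.2, 42.2 and 51.1 CPM (1.03, SE 0.22, edgeR adjusted p = 0.000572).

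Replicate 3 at 3 h was thus the lowest early library for these genes, and the sum over the list was 869 to 1360 CPM at 3 h and 2030 to 2440 CPM at 20 h. Without replicate 3 at 3 h, 14 of the 38 were called, and 16 without replicate 4 at 20 h. Genes of the preceding phases moved less. Of 40 genes of the G1/S transition and DNA replication 1 was called, with a list median of 0.33. All 40 had a positive log2 fold change. In 20 of them the libraries did not overlap, against 21.1% of all genes. The called gene was Tk1, the thymidine kinase of the cytosol. Its level was 26, 27.6, 27.3 and 32 CPM at 3 h and 53.7, 51.6, 47.2 and 64.4 CPM at 20 h (0.94, SE 0.17, edgeR adjusted p = 9.6e-05), again without overlap. Among 18 genes of G1 cyclins and cyclin-dependent kinase inhibitors, Cdkn2c and Rbl2 were called, both higher.

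The promoters of mitotic genes often hold a cell cycle homology region, read by the repressive DREAM complex, and the short form TTTGAA was searched on both strands in RefSeq promoters (GRCm38.p6, 250 bases before to 50 after the start site). It was present in 23 of the 33 list members with a promoter (69.7%), and in 20.2% of all 27025 promoters. The windows of the called members with the largest change are shown because they hold these letters close to the start site, with the match in capitals.
Ube2c, chr2:164769852-164769951, plus strand: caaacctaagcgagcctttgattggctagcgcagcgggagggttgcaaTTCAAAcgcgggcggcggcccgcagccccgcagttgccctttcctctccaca
Cenpa, chr5:30666836-30666935, plus strand: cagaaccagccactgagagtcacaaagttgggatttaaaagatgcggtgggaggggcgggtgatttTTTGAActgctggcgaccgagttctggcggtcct
In Ube2c the match is on the other strand, so it reads TTCAAA. A match describes the letters of the promoter and does not show that a factor was bound. Of the 24 called members with a promoter, 17 held the letters.

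Many interferon-stimulated genes fell, and none rose. All 35 type I interferon-stimulated genes tested had a negative log2 fold change, with a median of -0.83, and 16 were called lower, against 2.77% lower among all genes. In 22 the libraries did not overlap. Irf7, the transcription factor that amplifies interferon production, lay at 86.7, 147, 94.2 and 109 CPM at 3 h and at 37.9, 59.6, 23.6 and 39.8 CPM at 20 h (log2 fold change -1.44, SE 0.27, edgeR adjusted p = 0.000122). Isg15, a ubiquitin-like modifier, lay at 16.1, 25.2, 15.3 and 19 CPM and then at 6.98, 10.5, 5.64 and 9.44 CPM (-1.21, SE 0.22, edgeR adjusted p = 5.57e-05). Usp18, the protease that removes Isg15 and damps the interferon receptor, lay at 16.2, 21.5, 15.1 and 20.3 CPM and then at 5.48, 10.0, 5.04 and 7.66 CPM (-1.37, SE 0.24, edgeR adjusted p = 4.39e-05). For all 3 genes replicate 2 was the highest library at each time, replicate 3 the lowest at 20 h, and the groups did not overlap. Ifit1, an RNA sensor, was at 20.5, 34.8, 12.8 and 26 CPM and then at 7.88, 12, 4.44 and 8.35 CPM (-1.53, SE 0.38, edgeR adjusted p = 0.00388). That call was lost without replicate 2 or 4 at 3 h, or without replicate 1, 3 or 4 at 20 h, with edgeR adjusted p up to 0.0312. The number of list members called was 7 without replicate 2 at 3 h, 8 without replicate 3 at 20 h and 10 without replicate 1 at 20 h.

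The other interferon-related lists changed less. Of 14 interferon-inducible GTPase genes 1 was called lower (Irgm1), and of 15 genes of class I antigen presentation 2 were (Pdia3 and B2m). Of 12 genes of class II presentation 1 was called higher (H2-DMa, which loads peptides). All genes gave 2.77% lower and 3.31% higher. The list medians were -0.04, -0.23 and 0.36. In class I 14 of 15 genes were negative. Their sum was 7240 to 7760 CPM at 3 h and 5630 to 6370 CPM at 20 h. All 12 class II genes were positive. Their sum was 1080 to 1190 CPM and then 1220 to 1390 CPM (exact permutation test, two-sided, p = 0.0286 for each class). The call of Irgm1 was lost without any 1 library other than replicate 3 at 3 h (edgeR adjusted p up to 0.0536). The cytokine-like chemokine Cxcl10, another interferon target, was at 3.51, 5.24, 3.65 and 9.77 CPM at 3 h and at 1.5, 3.14, 1.31 and 2.21 CPM at 20 h (-1.41, SE 0.35, edgeR adjusted p = 0.00402). Its highest library was replicate 4 at 3 h, without which its adjusted p was 0.0664, and the call was also lost without replicate 1, 3 or 4 at 20 h.

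The interferon-stimulated response element, searched on both strands as a pair of GAAA blocks with 2 bases between them in the same promoter windows, was present in 16 of 25 list members with a promoter (64%) and in 3.99% of all promoters. Of the 11 called members with a promoter 7 held it. Ifit1 is shown for its pair of matches on the other strand, and Oas3, an enzyme that senses double-stranded RNA, for a match on its own strand, with the matches in capitals.
Ifit1, chr19:34640749-34640848, plus strand: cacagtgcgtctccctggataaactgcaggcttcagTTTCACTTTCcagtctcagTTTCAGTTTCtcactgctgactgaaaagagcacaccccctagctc
Oas3, chr5:120777681-120777780, minus strand: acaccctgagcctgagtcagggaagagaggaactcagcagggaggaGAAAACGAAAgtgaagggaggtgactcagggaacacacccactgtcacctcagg
Oas3 lay at 105, 151, 91.3 and 103 CPM at 3 h and at 44.8, 62.9, 29.4 and 45 CPM at 20 h, with the same order of libraries as Irf7 at 20 h (-1.30, SE 0.30, edgeR adjusted p = 0.00204). Its call was lost without replicate 2 at 3 h or replicate 3 at 20 h, with edgeR adjusted p up to 0.0152.

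Of 27 NRF2 targets, which make up the antioxidant response, 13 were called lower and none higher, with a list median of -0.37. Slc7a11, the cystine transporter that feeds glutathione synthesis, had the deepest fall and is shared with the amino acid response list. It lay at 20.2, 22.3, 29.5 and 15.5 CPM at 3 h and at 3.35, 4.84, 6.35 and 2.34 CPM at 20 h (log2 fold change -2.43, SE 0.25, edgeR adjusted p = 2.7e-10). Nqo1, a quinone reductase, lay at 9.25, 6.70, 11.8 and 9.49 CPM and then at 2.76, 3.11, 2.84 and 2.85 CPM, so that the early libraries varied and the late ones hardly did (-1.68, SE 0.25, edgeR adjusted p = 2.19e-06). Gclm, a subunit of the enzyme that starts glutathione synthesis, lay at 137, 119, 169 and 126 CPM and then at 57.4, 66.9, 73.4 and 65.1 CPM (-1.07, SE 0.16, edgeR adjusted p = 1.72e-06). Gsta3, a glutathione transferase with close paralogs, lay at 9.20, 5.39, 11.1 and 8.39 CPM and then at 2.34, 2.70, 4.12 and 3.36 CPM (-1.43, SE 0.23, edgeR adjusted p = 8.93e-06). In each of these 4 genes replicate 3 was the highest library at 3 h, and the groups did not overlap. Sqstm1, the autophagy receptor p62 that also releases NRF2 from its inhibitor, was at 861, 715, 1233 and 774 CPM and then at 425, 441, 428 and 464 CPM (-1.03, SE 0.15, edgeR adjusted p = 1.2e-06).

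The amino acid and unfolded protein response moved the same way. Of 28 genes 11 were called lower and none higher, with a median of -0.35. Trib3, a pseudokinase that restrains ATF4, lay at 12.6, 9.28, 20.1 and 10.1 CPM at 3 h and at 3.03, 2.83, 4.72 and 3.44 CPM at 20 h (-1.89, SE 0.19, edgeR adjusted p = 2.26e-10). Ddit3, the factor CHOP, lay at 27.7, 21.6, 36.4 and 25 CPM and then at 11.5, 12.4, 12.2 and 13.4 CPM (-1.16, SE 0.16, edgeR adjusted p = 6.34e-07). Asns, asparagine synthetase, lay at 19.8, 16, 23 and 20.2 CPM and then at 9.73, 9.24, 9.12 and 10.2 CPM (-1.04, SE 0.15, edgeR adjusted p = 8.46e-07). Replicate 3 at 3 h was the highest library for all 3. Summed over the list, however, it was among the lowest early libraries, at 2590 CPM in a range of 2590 to 2870 CPM at 3 h, against 2000 to 2340 CPM at 20 h. Atf4 itself fell by 0.54 on the log2 scale, and of the genes of the endoplasmic reticulum branch Xbp1 and Hspa5 were called lower. Of 27 cytosolic chaperone genes only Hspa9, a mitochondrial chaperone, was called.

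Letters of the antioxidant response element (TGACNNNGC on both strands) were found in 9 of 22 NRF2 targets with a promoter (40.9%) and in 14% of all promoters, and those of the amino acid response element (TGATGCAA) in 4 of 24 genes (16.7%) and in 1.03% of all. Gsta3 and Gclm are shown for the first, on opposite strands, and Slc7a11 for the second, of which it holds a pair facing each other.
Gsta3, chr1:21240418-21240517, plus strand: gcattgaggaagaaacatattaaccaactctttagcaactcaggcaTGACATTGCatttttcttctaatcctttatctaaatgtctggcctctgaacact
Gclm, chr3:122245377-122245476, plus strand: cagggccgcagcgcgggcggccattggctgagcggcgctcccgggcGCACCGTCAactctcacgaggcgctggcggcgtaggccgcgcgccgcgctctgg
Slc7a11, chr3:50443617-50443716, minus strand: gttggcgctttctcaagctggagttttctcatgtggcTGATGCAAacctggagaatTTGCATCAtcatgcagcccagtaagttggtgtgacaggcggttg
Of the called NRF2 targets with a promoter 7 of 12 held the element, and of the called amino acid response genes Slc7a11 alone of 11.

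The called circadian clock genes went in both directions. Of 18 tested, 5 were called higher (Dbp, Nr1d1, Per3, Tef and Cry2) and 2 lower (Cry1 and Nfil3), with a median of 0.05. Dbp, a PAR bZIP factor driven directly by the clock, lay at 5.02, 4.47, 6.26 and 5.83 CPM at 3 h and at 21.9, 24.2, 21.4 and 23.6 CPM at 20 h (log2 fold change 2.08, SE 0.23, edgeR adjusted p = 1.49e-09). Nr1d1, the repressor REV-ERB alpha, lay at 1.70, 1.38, 1.68 and 1.71 CPM and then at 5.69, 6.41, 6.92 and 5.31 CPM (1.92, SE 0.23, edgeR adjusted p = 2.39e-08). Per3, a period gene, was at 3.26, 3.29, 3.16 and 3.18 CPM and then at 7.60, 8.64, 8.16 and 8.98 CPM (1.37, SE 0.20, edgeR adjusted p = 1.35e-06). The spread within each time was small beside the distance between the times in all 3. Tef, a relative of Dbp, was at 36.6, 32.3, 38.8 and 34.4 CPM and then at 60.4, 67.8, 67.9 and 64.5 CPM (0.88, SE 0.13, edgeR adjusted p = 2e-06). In the other direction Cry1, a repressor of the late phase of the cycle, lay at 7.74, 7.93, 11.3 and 8.73 CPM at 3 h and at 4.81, 5.47, 6.64 and 4.76 CPM at 20 h, without overlap (-0.73, SE 0.12, edgeR adjusted p = 1.48e-05). Nfil3, which competes with Dbp and Tef for the same sites, had a log2 fold change of -0.67 and Cry2 one of 0.60, and both calls were lost in some of the fits without 1 library, with edgeR adjusted p up to 0.0276 for Nfil3 (without replicate 2 at 20 h) and up to 0.0259 for Cry2 (without replicate 4 at 3 h). The activators Clock (-0.47) and Arntl (-0.18) and the genes Per1 (0.09) and Per2 (0.72) did not pass the test.

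The E-box CACGTG, bound by CLOCK and ARNTL, was present in 5 of 17 clock gene promoters (29.4%) and in 8.09% of all, and the D-box TTATGTAA, bound by DBP and TEF, in 1 of 17 (5.88%), that of Per3, and in 1.11% of all. Both strands were searched, and the E-box letters also contain the shorter hypoxia element ACGTG. The promoters of Tef, Cry1 and Per3 are the ones among the called genes that held these letters.
Tef, chr15:81802498-81802597, plus strand: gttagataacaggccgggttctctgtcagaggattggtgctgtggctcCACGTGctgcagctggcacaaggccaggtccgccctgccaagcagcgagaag
Cry1, chr10:85185063-85185162, minus strand: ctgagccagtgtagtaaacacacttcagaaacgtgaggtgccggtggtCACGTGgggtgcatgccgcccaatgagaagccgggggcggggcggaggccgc
Per3, chr4:151044794-151044893, minus strand: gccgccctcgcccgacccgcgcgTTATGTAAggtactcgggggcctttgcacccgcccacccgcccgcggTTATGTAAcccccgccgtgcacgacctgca
Tef and Cry1 hold the same E-box letters and changed in opposite directions. Per3 holds its D-box letters at a pair of positions.

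**Figure D3:**
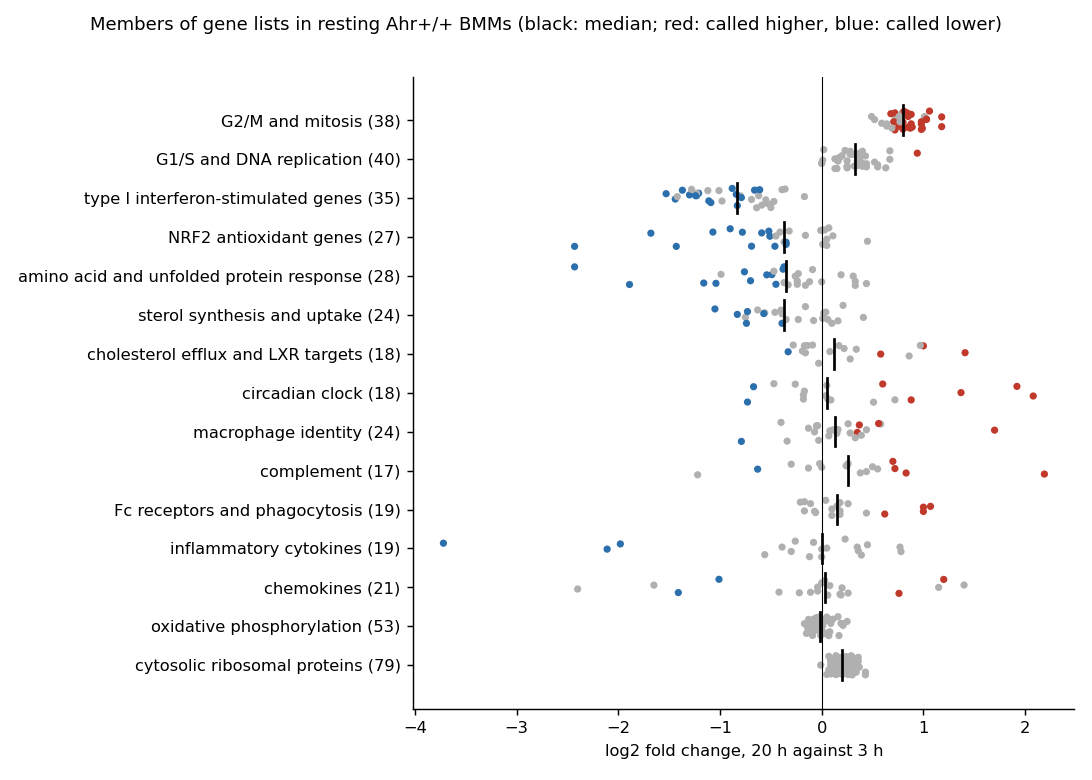
Log2 fold change from 3 h to 20 h (horizontal axis) of the tested members of 15 gene lists in resting Ahr+/+ BMMs. Each point is 1 gene, red where called higher, blue where called lower and grey where not called, and the black bar is the list median, which lies highest for the mitosis list (0.80) and at -0.83 for the interferon-stimulated genes.

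Some sterol genes fell, and a few genes of cholesterol handling rose. Of 24 genes of sterol synthesis and uptake 6 were called lower, among them Sqle, Cyp51 and Srebf2, and none higher, with a median of -0.37. Sqle, the squalene epoxidase of sterol synthesis, lay at 27.7, 30.3, 28.3 and 45 CPM at 3 h and at 19.2, 17.1, 21.1 and 21.8 CPM at 20 h (log2 fold change -0.73, SE 0.14, edgeR adjusted p = 0.000133). Its libraries were separate between the times, replicate 4 being the highest at each, although the change was under 2-fold. Srebf2, the transcription factor that drives sterol synthesis, had a log2 fold change of -0.39 (SE 0.11, edgeR adjusted p = 0.00923), and its call was lost without any 1 library other than replicates 1 and 2 at 3 h, with edgeR adjusted p up to 0.0579. The list had 3 calls without replicate 4 at 3 h and 3 without replicate 2 at 20 h.

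Of 18 genes of cholesterol efflux and liver X receptor targets, 3 were called higher (Cyp27a1, Apoe and Arl4c) and 1 lower (Npc1, the lysosomal cholesterol exporter), with a median of 0.12. Cyp27a1, which makes 27-hydroxycholesterol, lay at 11.9, 14.3, 14 and 13.5 CPM at 3 h and at 33.5, 42.5, 26.9 and 39.7 CPM at 20 h (1.41, SE 0.18, edgeR adjusted p = 4.83e-08). Apoe, the apolipoprotein that carries cholesterol out of macrophages, was abundant, at 1441, 1596, 1773 and 1498 CPM and then at 3134, 3854, 2450 and 3220 CPM. Its libraries did not overlap (1.00, SE 0.27, edgeR adjusted p = 0.00853), but the call was lost without any library other than replicate 3 at 20 h, with edgeR adjusted p up to 0.0405. The transporters Abca1 (0.34) and Abcg1 (0.22) did not pass the test.

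Macrophage surface genes rose in part. Of 24 macrophage identity genes 4 were called higher (Mrc1, Aif1, Adgre1 and Csf1r) and 1 lower (Cd33, a sialic acid-binding lectin), and the median was 0.13. Mrc1 lay at 66, 72.4, 36.4 and 70.8 CPM at 3 h and at 178, 230, 198 and 190 CPM at 20 h (log2 fold change 1.70, SE 0.20, edgeR adjusted p = 6.67e-09), and replicate 3 was again the lowest library at 3 h. Adgre1, the antigen F4/80, lay at 819, 924, 821 and 860 CPM and then at 1015, 1186, 1139 and 1088 CPM, a small but separate difference (0.37, SE 0.07, edgeR adjusted p = 0.000217). Csf1r lay at 1628, 1832, 1929 and 1779 CPM and then at 2119, 2593, 2120 and 2308 CPM (0.35, SE 0.09, edgeR adjusted p = 0.00589). The call of Csf1r was lost without replicate 1, 2 or 4 at 3 h or replicate 2 or 4 at 20 h (edgeR adjusted p up to 0.0521), and in these 5 fits only 2 of the list were called higher. That of Aif1 was lost in the same fits and also without replicate 3 at 20 h (edgeR adjusted p up to 0.0704). Csf1, the gene of M-CSF itself, went the other way, from 19.1, 16.1, 23.3 and 25.5 CPM to 9.10, 7.01, 10.0 and 10.4 CPM (-1.19, SE 0.18, edgeR adjusted p = 3.75e-06).

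Among genes of complement and of particle uptake, most were not called. Of 17 complement genes 4 rose (Itgax, C1qa, C1qb and C1qc) and C3 fell. C1qa, a chain of the first component of complement, lay at 301, 393, 446 and 436 CPM at 3 h and at 557, 774, 672 and 798 CPM at 20 h (0.83, SE 0.16, edgeR adjusted p = 0.000238). Of 19 genes of Fc receptors and phagocytosis 4 were called higher (Slamf8, Fcgr2b, Fcgr4 and Slamf9) and none lower, with a median of 0.15, but 2 without replicate 1 or 2 at 3 h or without replicate 4 at 20 h. The call of Slamf9 was lost without any 1 library other than replicate 2 at 20 h (edgeR adjusted p up to 0.0712). Fcgr2b, the inhibitory receptor for IgG, lay at 45.7, 47.5, 44.3 and 58.6 CPM and then at 84.1, 112, 96.9 and 99.3 CPM (1.00, SE 0.15, edgeR adjusted p = 4.8e-06). Fcgr4, an activating one, lay at 25, 29.1, 16 and 23.4 CPM and then at 45.9, 54.5, 41.1 and 45.6 CPM (1.00, SE 0.20, edgeR adjusted p = 0.00037). Neither the inhibitory nor the activating receptor overlapped between the times.

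Scavenger receptors moved in both directions. Of 22 tested, Mrc1, Cd5l and Stab1 were called higher and Marco, Clec4e and Msr1 lower. Cd5l, a secreted scavenger protein of tissue macrophages, lay at 17.1, 13.7, 15.6 and 18.9 CPM at 3 h and at 40.5, 32.8, 43.1 and 52.4 CPM at 20 h (1.37, SE 0.16, edgeR adjusted p = 4.17e-09). Marco, which binds bacteria and particles, lay at 34.1, 22.8, 83.1 and 50.5 CPM and then at 8.89, 7.64, 18.8 and 16.7 CPM (-1.86, SE 0.39, edgeR adjusted p = 0.000627). Its spread between replicates was wide, replicate 3 being the highest at both times, and the adjusted p was 0.0124 without replicate 3 at 3 h.

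Inflammatory genes were low in these resting cultures, and few of them changed. Of 19 inflammatory cytokine and mediator genes 3 were called lower (Il6, Ptgs2 and Il1a) and none higher, with a median of 0.00. Il1a, an alarmin cytokine, lay at 1.02, 0.703, 0.690 and 1.71 CPM at 3 h and at 0.523, 0.251, 0.426 and 0.155 CPM at 20 h (-1.98, SE 0.39, edgeR adjusted p = 0.000235), but its adjusted p was 0.0332 without replicate 4 at 20 h, the deepest and the lowest. Ptgs2, the inducible cyclooxygenase, lay at 0.876, 1.15, 0.296 and 1.42 CPM and then at 0.314, 0.251, 0.248 and 0.189 CPM, so that replicate 3 at 3 h fell among the late libraries (-2.11, SE 0.39, edgeR adjusted p = 9.48e-05). Il6 rested on 4 to 12 reads a library at 3 h and on 0 to 6 at 20 h, too few for a level, and its call was lost without replicate 3 at 3 h or replicate 4 at 20 h. Tnf (-0.39) and Il1b (0.05) did not pass the test. The 3 called genes are a small part of the list, whose sum was higher at 20 h, at 331 to 368 CPM, than at 3 h, at 281 to 326 CPM (exact permutation test, two-sided, p = 0.0286). Without 1 library, 1 to 3 members were called lower.

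Of 21 chemokine genes Ccl6 and Ccl9 were called higher and Cxcl10 and Ccl5 lower, with a median of 0.03. Ccl6 and Ccl9 are constitutive chemokines of macrophages that bind Ccr1. Ccl6 lay at 114, 147, 89.9 and 139 CPM at 3 h and at 259, 320, 274 and 276 CPM at 20 h (1.20, SE 0.12, edgeR adjusted p = 1.86e-10). Ccl9 lay at 408, 642, 456 and 523 CPM and then at 762, 923, 895 and 854 CPM (0.76, SE 0.11, edgeR adjusted p = 3.02e-06). Neither overlapped between the times. The sum over the list was 912 to 1250 CPM at 3 h and 1490 to 1740 CPM at 20 h (exact permutation test, two-sided, p = 0.0286). Most of that rise came from Ccl6 and Ccl9, so the sum largely repeats their calls and does not speak for the other members. Ccl5 was called lower, except without replicate 4 at 3 h (edgeR adjusted p 0.0162).

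The few calls among immediate early factors and signalling inhibitors were all lower. Of 25 immediate early factors 3 were called lower (Egr3, Klf4 and Fosl2). Of 19 MAP kinase phosphatases and inhibitors of cytokine signalling 4 were (Dusp4, Spry2, Spred2 and Dusp16). Of 16 NF-kB subunits and inhibitors 1 was (Tnfaip3), and none was higher in the 3 lists. The medians were -0.22 for the immediate early factors and -0.33 for the MAP kinase list. The NF-kB list had a median of 0.00, with 8 members positive and 8 negative. These counts rested on all 8 libraries. The MAP kinase list had 2 calls without replicate 1 at 3 h, 0 without replicate 2 at 20 h and 1 without any other library, and the calls of Dusp4 and Dusp16 were lost in each of these 8 fits (edgeR adjusted p up to 0.0463 and 0.0402). The immediate early list had 1 call without replicate 2 at 3 h and 2 or 3 without any other library. Among 10 genes of nitric oxide, arginine and itaconate metabolism Acod1, Ass1 and Gch1 fell, and the median was -0.56. Of 10 genes of the NADPH oxidase and superoxide handling, Sod2 and Cybb were called lower. The call of Cybb was lost without any 1 library other than replicate 3 at 3 h (edgeR adjusted p up to 0.0464). Of 24 pattern recognition receptors and adaptors 4 were called higher (Tlr9, Nod1, Tlr1 and Irak4) and Nod2 was called lower. The call of Irak4 was lost without any 1 of the 8 libraries (edgeR adjusted p up to 0.0278). Tlr9, the sensor of unmethylated DNA, had the largest change of the receptors and adaptors called (1.09, SE 0.19, edgeR adjusted p = 3.56e-05).

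Several further lists held no call at 0.01. There was none among 53 genes of oxidative phosphorylation (median -0.02), 79 of cytosolic ribosomal proteins (0.20), 25 of ribosome biogenesis (-0.10), 21 HIF-1 targets (0.00), 24 p53 and BCL2 family genes (0.08) and 10 glucocorticoid targets (0.02). The ribosomal protein genes are a case of many small changes of one sign, since 78 of the 79 were positive, although their sum of 20800 to 25300 CPM at 3 h overlapped that of 24700 to 30400 CPM at 20 h (exact permutation test, two-sided, p = 0.143). The glycolysis and lysosome lists did hold calls. Of 24 glycolytic genes 2 were called lower (Slc2a6 and Pgam1). Of 46 lysosomal genes Atp6v0d2, a subunit of the proton pump, was called higher. Another 5 were called lower, among them Sqstm1, Gpnmb and Lamp1, against 2.77% lower among all genes. In the lysosome list 33 members were negative and 13 positive. Its sum was 58600 to 66400 CPM at 3 h and 54100 to 57100 CPM at 20 h (exact permutation test, two-sided, p = 0.0286).

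The list of the AhR pathway itself was short. Of 16 listed 11 were tested. Ahrr was called higher and Nqo1 and Slpi lower, against 3.31% higher and 2.77% lower among all genes. Nqo1 is also counted among the NRF2 targets above. The call of Slpi was lost without replicate 3 at 3 h (edgeR adjusted p 0.0116). Ahrr, the AhR repressor and a direct target of the receptor, lay at 2.92, 3.79, 2.42 and 3.56 CPM at 3 h and at 5.34, 5.91, 4.37 and 5.17 CPM at 20 h, without overlap (0.70, SE 0.19, edgeR adjusted p = 0.00793). Its call was lost without any 1 library other than replicate 2 at 3 h and replicate 3 at 20 h, with edgeR adjusted p up to 0.0464. Ahr had a log2 fold change of 0.22 (SE 0.22, edgeR adjusted p = 0.577). Cyp1a1 and Cyp1a2, the classical targets, had no read in any of the 8 libraries, and 0 reads of 233047331 in the deepest allow up to 3 reads there, for counting error only.

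Marker genes of other cell types moved with time in part, and their share in the results above was not tested. The B cell list summed to 85.9 to 102 CPM at 3 h and 173 to 188 CPM at 20 h, all but a little of it from Ighm and Blnk. Ighm, the heavy chain of IgM, lay at 11.2, 12.3, 14.9 and 11.8 CPM and then at 48.1, 53.7, 52.9 and 57.1 CPM (log2 fold change 2.08, SE 0.30, edgeR adjusted p = 1.01e-06), while Cd79a and Ms4a1 were near 0. The endothelial list summed to 58.9 to 77.9 CPM and then to 40.2 to 47.4 CPM, mostly from Vwf, which lay at 70.2, 53.8, 67.3 and 66.4 CPM and then at 43.6, 40.8, 35.8 and 38 CPM (-0.70, SE 0.16, edgeR adjusted p = 0.00143), while Emcn and Cldn5 had no read. The dendritic cell list summed to 1.52 to 2.27 CPM and then to 2.38 to 3.14 CPM, and these 3 lists were separate between the times (exact permutation test, two-sided, p = 0.0286 for each). The T and NK cell list summed to 0.779 to 2.18 CPM and then to 2.02 to 3.24 CPM (p = 0.0571 by the same exact test), with Ncr1, Nkg7 and Gzmb at 0. The granulocyte list was at 69.5 to 94.8 CPM and 84.4 to 94.8 CPM. Fibroblast genes (0.652 to 0.876 and 0.817 to 1.53 CPM), erythroid genes (0.125 to 0.522 and 0.182 to 0.471 CPM) and mast cell genes (0.195 to 0.395 and 0.0314 to 0.239 CPM) were near 0 throughout. The osteoclast list summed to 228 to 254 CPM and then to 256 to 282 CPM, without overlap (exact permutation test, two-sided, p = 0.0286). Of 8 osteoclast genes tested Atp6v0d2 and Dcstamp, which takes part in cell fusion, were called higher. Atp6v0d2 lay at 29, 31.4, 20.7 and 32.3 CPM at 3 h and at 65.6, 70.4, 73.9 and 69.3 CPM at 20 h (1.30, SE 0.25, edgeR adjusted p = 0.000177).

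The change with time was also measured in resting BMMs labelled Ahr-/-, in libraries that shared no sample with those above. The 20 h libraries there all carried the same prefix in their names, which most of the 3 h libraries did not. In activated Ahr+/+ BMMs, too, the 20 h libraries shared a prefix that only part of the 3 h libraries carried. What the prefix stands for is not stated, and its share in the change of the Ahr-/- BMMs was not tested. There, 512 genes were called higher (3.52%) and 503 lower (3.46%). Of the 481 genes that rose in Ahr+/+ BMMs, 478 had a positive log2 fold change in Ahr-/- BMMs (99.4%) and 310 were called higher there. Of the 402 that fell, 398 had a negative one (99%) and 265 were called lower. None was called in the opposite direction. The median log2 fold changes were 0.77 in Ahr+/+ and 0.68 in Ahr-/- BMMs for the first set, and -0.57 and -0.53 for the second. The genes called the same way in both were 575, or 65.1% of the Ahr+/+ calls and 56.7% of the Ahr-/- calls. No gene passed a test of the difference between the genotypes in the change with time (edgeR, adjusted p below 0.01), with 444 (3.05%) at an unadjusted p below 0.05, and DESeq2 gave 0 with 498 unadjusted. A missed threshold does not show that the genotypes changed alike.

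Mki67 was at 83.7, 58.6, 71.3 and 75.9 CPM at 3 h and at 267, 123, 177 and 152 CPM at 20 h in Ahr-/- BMMs, a log2 fold change of 1.31 beside 0.84 in Ahr+/+ BMMs. Mrc1 was at 34.7, 18.3, 24.5 and 24.6 CPM and then at 114, 99.1, 123 and 106 CPM, a change of 2.12 beside 1.70. Irf7 was at 56.5, 98.5, 270 and 285 CPM and then at 25.8, 38.3, 73.2 and 82.8 CPM. Its libraries overlapped between the times, those of replicates 3 and 4 being the highest at each. Among the lists, 38 of 38 mitotic genes were called higher in Ahr-/- BMMs (median 1.30), 18 of 35 interferon-stimulated genes lower (median -0.79), 10 of 27 NRF2 targets lower (-0.26), 12 of 28 amino acid response genes lower (-0.31) and 9 of 24 sterol genes lower (-0.43). The clock list had 4 calls higher and 2 lower there.

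**Figure D4:**
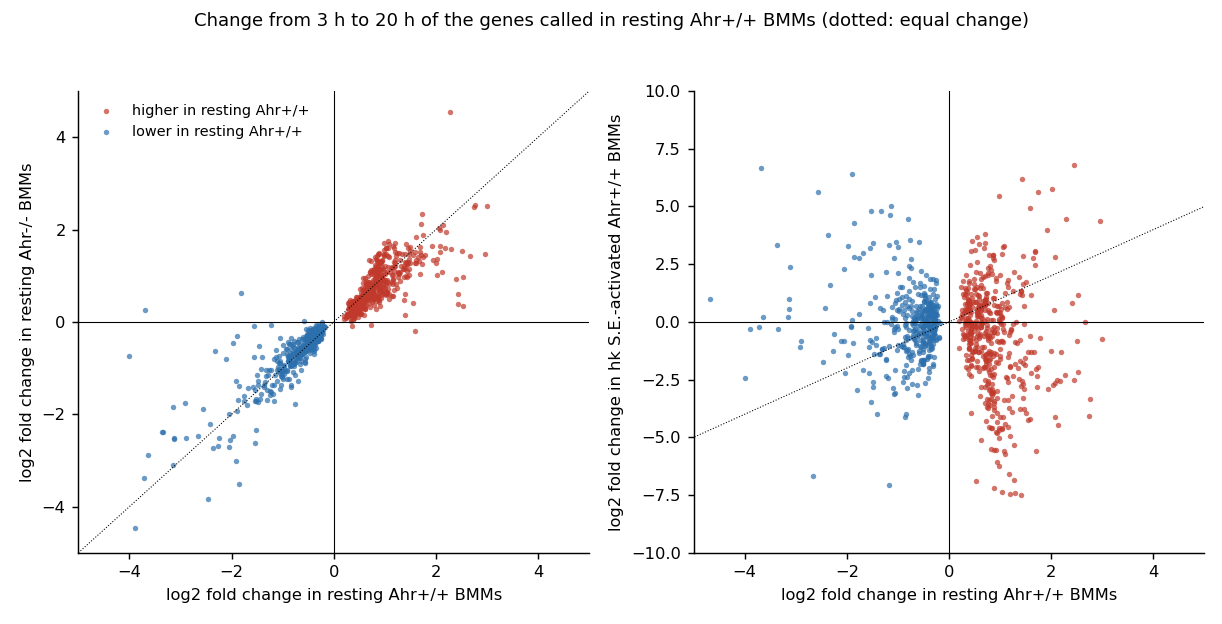
Log2 fold change from 3 h to 20 h in resting Ahr+/+ BMMs (horizontal axes) against the same change in resting BMMs labelled Ahr-/- (left, vertical axis) and in Ahr+/+ BMMs activated with hk S.E. (right, vertical axis) for the 883 genes called in the first. Each point is 1 gene and the dotted line marks equal change; points follow the line on the left, where 478 and 398 genes have the same sign, and do not on the right.

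In BMMs activated with hk S.E. the passage of time had another content. There, 4799 genes were called higher (33.0%) and 3844 lower (26.4%), and the median size of change over all genes was 0.73 on the log2 scale, against 0.20 in resting BMMs. Of the 481 genes that rose at rest 194 had a positive sign after activation (40.3%), 150 being called higher and 224 lower. Of the 402 that fell at rest 212 had a negative sign (52.7%), 163 being called lower and 142 higher. The difference between resting and activated BMMs in the change with time was tested directly and was called for 3101 genes (21.3%) as higher at rest and for 3849 (26.5%) as lower. Among these were 351 of the 481 genes and 277 of the 402.

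The mitotic genes showed the contrast most plainly. All 38 were called in the direct test of the difference, and all 38 were called lower in activated BMMs, with a median of -3.78 beside 0.80 at rest. Mki67 was at 138, 155, 118 and 151 CPM at 3 h of activation, close to the resting libraries of that time, and at 15.7, 14.1, 18.4 and 18.1 CPM at 20 h. Mrc1 was at 56.7, 74.9, 40.4 and 60.9 CPM and then at 1.03, 1.79, 1.01 and 1.09 CPM, where the resting cells had risen to 178 CPM or more (difference of the changes 7.27 on the log2 scale, edgeR adjusted p = 3.88e-26). Trib3 went the other way, from 3.80, 2.66, 3.95 and 2.85 CPM to 278, 279, 248 and 303 CPM (difference -8.28, edgeR adjusted p = 1.83e-30), and 21 of the 28 amino acid response genes were called higher after activation (median 1.5). Of the clock genes 13 of 18 were called higher in activated BMMs (median 1.78 beside 0.05). Dbp was at 0.562, 0.509, 0.554 and 0.194 CPM and then at 3.05, 2.99, 3.55 and 3.09 CPM there, a lower level than at rest and a log2 fold change of 2.80 beside 2.08, with no call for the difference (edgeR adjusted p = 0.146). NRF2 targets and sterol genes had calls lower in both, with 16 of 27 and 10 of 24 after activation (medians -0.42 and -0.51). The interferon-stimulated genes had 22 of 35 called lower and 2 higher (median -1.07), although Irf7 was called higher, at 996, 1119, 928 and 987 CPM and then at 2208, 2153, 2040 and 2112 CPM.

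**Figure D5:**
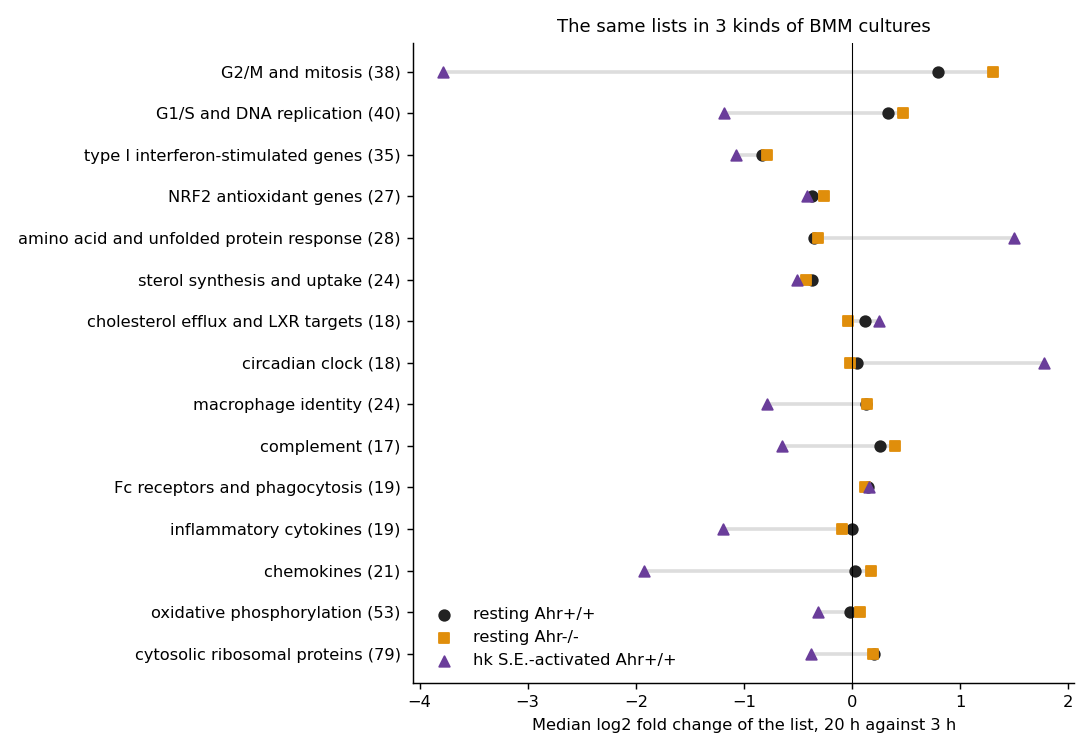
Median log2 fold change from 3 h to 20 h (horizontal axis) of the tested members of 15 gene lists in resting Ahr+/+ BMMs, resting BMMs labelled Ahr-/- and Ahr+/+ BMMs activated with hk S.E. The resting pairs lie close together, while the mitosis list stands at 0.80 and 1.30 at rest and at -3.78 after activation.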

How the data were processed

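Poly(A)-selected, strand-specific RNA-seq libraries of 64 BMM cultures were deposited, 4 in each of 16 groups, and the 8 resting Ahr+/+ libraries without ligand at 3 h and 20 h were compared. The authors trimmed the reads with AdapterRemoval, aligned them with HISAT2 2.1.0 to mm10 with GENCODE annotation, and deposited per library a count for each gene from HTSeq 0.9.1 (strand-specific, unique alignments, overlap with a gene required along the whole read). They also deposited variance-stabilised log2 values of all libraries, made with DESeq2, which served here only for an alternative. Rows that name no gene were left out, and the gene rows held 75.5 to 80% of the counts in the 8 libraries, which sets the precision together with the depths given above.

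Counts of all 64 libraries were fitted with edgeR 4.0.16 (R 4.3.3; TMM, filterByExpr with a minimum count of 10, 16 group means, quasi-likelihood F test), with Benjamini-Hochberg adjustment over 14537 genes and a threshold of 0.01. The same fit gave the change in Ahr-/- and in activated BMMs and the tests of the differences. Single values per library, the summed levels of lists among them, were compared by an exact permutation test, with no adjustment over the lists. The members and gene lists were chosen with earlier results of these data known. A list is therefore described by its counts and median beside those of all genes, with no test of enrichment. The p-values of the summed levels carry the same limit. Named were Ahr and the Cyp1 genes, the 15 largest rises and falls among called protein-coding genes with a mean log2 CPM of at least 1 and no overlap between the times, up to 4 called members of each list with those that define it, and up to 5 genes each way in the tests of differences. Where all called members of a list are named, those beyond this rule were chosen after their values were seen. Positions are those of GENCODE on GRCm38, and 18 motifs were read in RefSeq promoters (GRCm38.p6), of which those of the lists that hold most calls are described. Alternatives were a replicate block, the 8 libraries alone, DESeq2 1.42.0, limma 3.58.1 on the log2 values, other scalings and filters, thinning of the deepest library, each library left out, other thresholds and the prefix of the library names as a covariate. Some members of the lists are counted but not reported here by name.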

Additional observations from a re-analysis of the deposited data

Results flagged for a closer look

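In 7 of 126 groups of 4 libraries checked, 1 library stood apart from the other 3 by a gap that takes up most of the range, where chance gives about 1 in 20. At 3 h, replicate 2 was the highest for Slco2b1 (gap over range 0.873) and for the total gene count (0.913), and the lowest for Nr1d1 (0.909) and for the summed B cell markers (0.851). Replicate 4 at 3 h was the highest for Sqle (0.850). Replicate 3 at 3 h was the lowest for the summed mitosis genes (0.980). Replicate 4 at 20 h was the highest in total gene count (0.985), at 233047331 reads.

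Of 51 genes of the text that were checked, 43 changed with time otherwise at rest than after activation with hk S.E. This was by the direct edgeR test of the difference at an adjusted p below 0.01. Over all tested genes this difference was called for 6950 (47.8%). Many of the 51 were named for a large change at rest or a large difference in this same test. Their count is therefore partly set by that choice and describes these genes only. The values that follow are the log2 fold change at rest minus that after activation. In 27 genes the change was called in opposite directions. Higher with time at rest and lower after activation were the cell cycle genes Cenpf (8.38), Ube2c (7.75), Cenpa (4.91), Tk1 (4.87) and Mki67 (3.92). Of surface and scavenger genes the same held for Mrc1 (7.27), Slco2b1 (6.12), Cd5l (3.84), Itgax (3.48) and Fcgr4 (2.19). It held also for the chemokines Ccl9 (3.38) and Ccl6 (3.11), for Cyp27a1 (4.19) and Apoe (2.47) of cholesterol handling, for Trf (3.76) and Slc40a1 (1.75) of iron handling, and for Ighm (6.22), Atp6v0d2 (3.14) and C1qa (2.13). Lower with time at rest and higher after activation were the amino acid response genes Trib3 (-8.28), Ddit3 (-5.77) and Asns (-4.51), and further H2-Q6 (-5.48), Marco (-4.68), Irf7 (-2.52), Sqstm1 (-1.99) and Cry1 (-1.63).

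In the other 16 genes the sizes of the change differed without calls in opposite directions. The difference was positive for Cxcl10 (2.58), Ifit1 (1.92), Csf1 (1.25) and Fcgr2b (1.02). It was negative for Slc7a11 (-3.04), Ahrr (-2.73), Acod1 (-2.06), Nr1d1 (-2.06), Tef (-1.81), Oas3 (-1.81), Ptgs2 (-1.30), Isg15 (-1.20), Adgre1 (-1.10), Gclm (-0.78), Vwf (-0.75) and Sqle (-0.69).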

How the results depend on the processing

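Against 883 calls in the change with time at rest, 557 to 832 were made when 1 library was left out, 295 to 455 of them higher and 262 to 377 lower, and 551 to 754 of the 883 were among them. The lowest values were those without replicate 4 at 20 h, the deepest library. Thinning that library to a depth like the others' gave 838 calls, 802 of them shared. Other scalings gave 854 to 894 calls, the share of higher calls being 54.5% with TMM and 62.3% with library size alone. Without a filter on low counts there were 655. The 8 libraries fitted alone gave 1186 calls, 724 of them shared with the 883. DESeq2 on the 8 libraries gave 2002 calls (1034 higher and 968 lower), and an adjusted p below 0.05 gave 1653 (901 and 752). A test against a fold change of 1.5 left 64 (34 and 30). With the prefix of the library names as a covariate, 591 genes were called, 307 of them higher.

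The replicate numbers were shared by the times. The main fit did not pair the samples, and neither the labels nor the methods tie a number to a mouse. The deviations of same-numbered libraries from their group means correlated at 0.146, 0.188, 0.0925 and 0.185. Each library correlated best with its own number, which is a hint from the data and not from the design. With a replicate block within genotype there were 1941 calls (1040 higher and 901 lower), which included 882 of the 883. That replicate block also gave 1 call for the difference between the genotypes, Mmp8, a collagenase, at -1.23 in Ahr+/+ and -0.07 in Ahr-/- BMMs. This gene was picked out after its value was seen.

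The difference between resting and activated BMMs was called for 6629 to 6782 genes without 1 library, and that between the genotypes for 0 in each such fit. The G1/S list had 1 call with all 64 libraries, 11 with the replicate block and 16 with DESeq2 on the 8 libraries, and the mitosis list 37 and the interferon-stimulated list 32 with the block. The sterol list had 12 with the block. In lists with 1 or 2 calls in a direction, these were often lost without 1 library, down to 0 for the interferon-inducible GTPases, class II presentation and the lower calls among macrophage identity, complement, liver X receptor and chemokine genes. Of 1147 list medians recomputed, 1142 moved by no more than the median SE of the single genes in the list. That measure is not the SE of a list median. Of 148 called genes named in the text or chosen by the rule for names, 99 were also called without any 1 library, and none changed sign under any alternative. Rbl2, Mmp19 and Pgam1 were among those whose call was lost in most of the fits without 1 library. So were Slamf9, Aif1, Spry2, Gpnmb, Mmp13 and Egr3. The calls of Cd33, Hspa5, Pdia3 and H2-DMa were lost in some of these fits. At the depth of the shallower libraries, genes with few reads such as Il6 could not be given a level.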

Other observations

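Genes of iron handling, of purine signalling and of adhesion also changed with time at rest. Slc40a1, the iron exporter ferroportin, lay at 60.7, 62.3, 52 and 53.5 CPM at 3 h and at 108, 137, 82.1 and 108 CPM at 20 h (log2 fold change 0.93, SE 0.17, edgeR adjusted p = 0.000121). Cp, the ferroxidase ceruloplasmin, rose as well (1.27, SE 0.21, edgeR adjusted p = 1.98e-05), from 1.9, 2.26, 1.38 and 1.9 CPM to 3.91, 4.78, 3.98 and 5.37 CPM. Hp, haptoglobin, fell by 1.49 on the log2 scale (SE 0.29, edgeR adjusted p = 0.000258), and these were the 3 called among 18 genes of metal and iron handling.

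Of 14 genes of purine signalling 3 were called, all higher: Entpd1, the ectonucleotidase CD39 (0.72), P2ry6, a receptor for UDP (0.70), and P2rx7, a channel opened by ATP (0.35). The call of Entpd1 was lost without any 1 library other than replicate 2 at 3 h (edgeR adjusted p up to 0.0476). P2ry6 lay at 109, 105, 125 and 120 CPM at 3 h and at 181, 195, 175 and 194 CPM at 20 h, without overlap. Of 30 genes of integrins and matrix proteases 3 were called higher (Itgax, Itga9 and Mmp19) and 4 lower (Mmp8, Itgb7, Mmp13 and Itga5). Itgb7, a partner of the integrin alpha 4 chain, lay at 48.6, 46.9, 71.6 and 57.2 CPM at 3 h and at 26.5, 26, 29.9 and 28.7 CPM at 20 h (-1.01, SE 0.12, edgeR adjusted p = 2.65e-08). Of 24 FOXO targets and genes of growth factor withdrawal, Pik3ip1, Txnip and Foxo3 were called higher and none lower. The call of Foxo3 was lost without any 1 library other than replicate 3 at 20 h (edgeR adjusted p up to 0.0356).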
